A study of Mus musculus with 4 samples.

Results

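Atp5f1b, Atp5f1d and Cox5a are nuclear genes for subunits of the last machines of mitochondrial respiration. In the deposited table of captured heart RNA, a region was taken as belonging to them where its overlapped gene was one of these 3 names. Lines with the same chromosome, listed gene, listed start and counts in all 4 libraries were 1 region. This gave 4 of the 558 distinct regions, of which 2 lie over Atp5f1b (ENSMUSG00000025393), 1 over Atp5f1d (ENSMUSG00000003072) and 1 over Cox5a (ENSMUSG00000000088).

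The RNA came from whole hearts of C57BL/6 mice, and the series describes it as pulled down with an antibody against N4-acetylcytidine (ac4C), an acetylated RNA base written by the acetyltransferase NAT10. The first group is 2 libraries from NAT10 knockout hearts, labelled HFD+STZ with exercise. The second group is 2 libraries from control hearts with the same HFD+STZ and exercise label, so none of these treatments was compared. The sources used here do not give how the knockout was made, the cells it reaches, or the age and sex of the mice. They also do not say whether each library is a separate animal, and the p-values therefore reflect the spread between libraries, which may be technical. Libraries without capture were not used here, so RNA abundance and ac4C cannot be told apart, nor can fewer cells of a type and less RNA per cell.

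ATP synthase lets protons flow back across the inner mitochondrial membrane and uses that flow to make ATP. Its catalytic head is built of alpha and beta subunits, with the catalytic sites mainly on beta, the product of Atp5f1b. The product of Atp5f1d, the delta subunit, belongs to the central stalk that turns inside the head. Cytochrome c oxidase passes electrons to oxygen and pumps protons, and Cox5a encodes one of the nuclear subunits around its mitochondrially encoded core. Heart muscle lives almost wholly on this pathway. All 3 proteins are made in the cytosol as precursors with an N-terminal signal for import into mitochondria.

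Counts summed to 920818 and 693922 in the knockout libraries and to 674687 and 686323 in the control libraries, over the listed regions alone. The 2 most abundant regions, over mitochondrial ribosomal RNA genes and their neighbours and over Rn18s-rs5, held 40.7% to 43.8% of each library's counts. Nat10 was not analysed here and gave no check of the labels. Of 12 fixed heart muscle markers 9 were in the table, among them Myh6, Ttn and Ryr2. Of markers for other cells, 0 of 8 endothelial, 0 of 8 fibroblast and 0 of 6 adipocyte genes were listed, against 2 of 8 for smooth muscle and pericytes (Rgs5, Abcc9), 1 of 8 for macrophages (Cd74), 1 of 5 for red cells (Hba-a2) and 1 of 7 for skeletal muscle (Ckm). The 9 heart muscle genes summed to 86809 and 90174 normalised counts in knockout and 87828 and 88047 in control. Summed markers reached 151 and 187 in knockout and 84.0 and 154 in control for smooth muscle and pericytes, 103 in both knockout libraries and 48.5 and 84.4 in control for macrophages, 54.1 and 18.8 in knockout and 32.3 and 45.1 in control for red cells, and 676 and 639.7 in knockout and 780.2 and 677 in control for skeletal muscle. A listed gene, Ckm and Abcc9 included, need not be confined to the cells named, so these sums do not measure other cells. The part of such cells in the results was not tested.

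The sequences below give, for each gene, a longest run of regularly spaced C in its coding RNA. Antibody maps of ac4C in other systems have described stretches in which C recurs at codon-length steps, so the longest such run (CNN repeated, sense strand only, any frame) was looked up in the GENCODE M21 transcript with the longest coding sequence. Capitals mark the recurring C.
Atp5f1b, chr10:128083352-128083369 (GRCm38, plus strand): CctCggCctCggCctCcg
Atp5f1d, chr10:80142539-80142565 (GRCm38, plus strand): CcgCcgCtgCacCtgCccCcgCcgCcg
Cox5a, chr9:57521356-57521373 (GRCm38, plus strand): CcgCagCcgCggCtgCcc
These runs had 6 repeats in Atp5f1b, 9 in Atp5f1d and 6 in Cox5a. Each lay in exon 1 and within the first 100 coding bases (26 to 43, 74 to 100 and 29 to 46, counted from the A of the start codon), with the recurring C at the middle position of the codon. Only the first run found of the greatest length was kept, so equally long runs elsewhere in a gene would not be shown. A run of at least 6 repeats was held by 55.5% of 21523 mouse protein-coding genes and 65.6% of the 314 of them in the table, and one of at least 9 by 13.7% and 16.6%. C at the third codon position made up 26.5% of codons in Atp5f1b, 33.9% in Atp5f1d and 28.8% in Cox5a, against a median of 31.5% over genes in the table and 30.0% over all genes. The position of each counted region within its gene was not used here, so a run cannot be placed inside or outside a region.

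**Figure D1:**
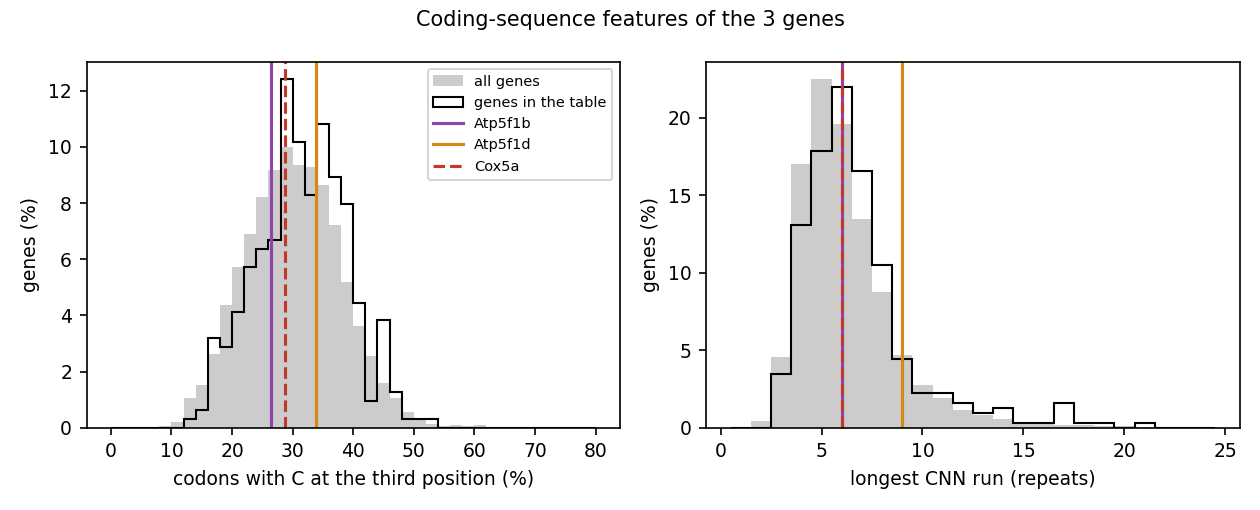
Percentage of genes (vertical axis) by the percentage of codons with C at the third position (left) and by the number of repeats in the longest CNN run (right; runs over 24 repeats, 0.316% of genes, not drawn). Grey bars are all 21523 genes, the black outline the 314 in the table, and vertical lines Atp5f1b, Atp5f1d and Cox5a, of which Atp5f1d alone has a run of 9 rather than 6 repeats.

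The comparison of knockout with control asked which captured RNAs differed between hearts labelled NAT10 knockout and control. None of the 4 regions passed the test across all regions (edgeR quasi-likelihood test, Benjamini-Hochberg adjusted p below 0.05), where 22 of 558 (3.94%) did, 13 higher (2.33%) and 9 lower (1.61%). At an unadjusted p below 0.05 edgeR called 2 of the 4, the Atp5f1b region listed with Atp5f1b and the Cox5a region, and 106 of all regions (19%). The DESeq2 Wald test called 0 of the 4 with or without adjustment, and 5 (0.896%) and 50 (8.96%) of all regions. The edgeR count over all regions moved with single libraries. It was 6 higher and 7 lower without control replicate 2, and 13 higher and 24 lower without knockout replicate 2.

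For the beta subunit gene, the region listed with Atp5f1b itself held 522 and 287 counts in knockout and 379 and 384 in control. Scaled for depth these were 478 and 450.0 normalised counts in knockout, against 612 and 559 in control (CPM with TMM scaling, computed on all 558 regions). On this scale both knockout libraries lay below both control libraries, as they did in 22.2% of all regions. The means were 464 ± 20.2 in knockout and 586 ± 37.6 in control (SD, n = 2 each), a ratio of 0.793. By edgeR, knockout over control was -0.33 ± 0.13 on the log2 scale (SE), with a 95% interval from -0.60 to -0.07 and an adjusted p of 0.142. It stayed below 0 in each of the 15 alternatives read for it, from -0.40 to -0.12, with adjusted p of 0.107 or more. The sum over both Atp5f1b regions is among these. Scaled by library totals alone, knockout library 1 lay above both control libraries, so the groups overlapped, and edgeR gave -0.19 (adjusted p = 0.897). The table places Atp5f1b on the plus strand at chr10:127919142-127926260, coordinates that are not those of GRCm38, and no source used here names their build.

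The second Atp5f1b region is listed with the neighbouring gene Baz2a, which starts 1244 bases after the end of Atp5f1b and encodes a chromatin protein. It held 742 and 528 counts in knockout and 479 and 501 in control. Normalised counts were 680.2 and 828 in knockout, against 774 and 729 in control. The groups overlapped, with the knockout libraries as the lowest and the highest of the 4. Means were 754 ± 104 in knockout and 752 ± 31.3 in control (SD, n = 2 each). The log2 fold change was -0.0011 ± 0.13 (SE; 95% interval -0.26 to 0.26, edgeR adjusted p = 0.997), which leaves folds from 0.834 to 1.20 within the interval. It was 0.14 without knockout replicate 1, -0.14 without knockout replicate 2, 0.04 without control replicate 1 and -0.05 without control replicate 2, so its sign turned with the library left out.

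**Figure D2:**
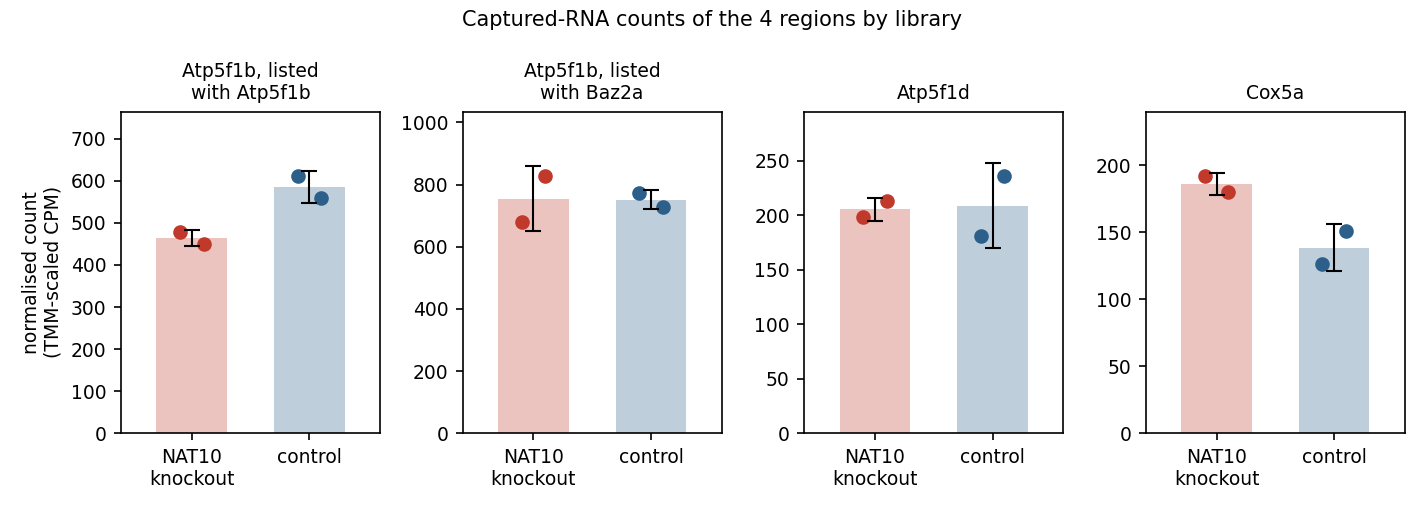
Normalised counts (vertical axes, TMM-scaled CPM, each from 0) of the 4 regions in NAT10 knockout (red) and control (blue) hearts. Points are libraries, bars group means and whiskers 1 SD (n = 2). The knockout points lie below the control points for the Atp5f1b region listed with Atp5f1b and above them for Cox5a, and overlap them in the other 2 panels.

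Set against each other within a library, the regions of Atp5f1b need no scaling for depth. The region listed with Atp5f1b held 41.3% (95% Wilson interval 38.6 to 44.0) and 35.2% (32.0 to 38.6) of the 2 regions' counts in the knockout libraries. In the control libraries it held 44.2% (40.9 to 47.5) and 43.4% (40.2 to 46.7). These intervals cover counting error only and treat every count as independent. Most counts below 200 in each library were even numbers, so the intervals may be too narrow even for that. The share was lower in both knockout libraries than in both controls, at 38.3% ± 4.30 in knockout and 43.8% ± 0.553 in control (SD, n = 2 each). A two-sided exact permutation test gave p = 0.333, the smallest that 2 libraries against 2 allow. The same share did not overlap between groups in 42.9% of the 49 genes with at least 2 regions of their own.

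The log2 fold changes of the 2 Atp5f1b regions differed by -0.33, the first region minus the second. The edgeR test of whether regions of 1 gene change unequally was run over the 49 genes. For Atp5f1b its gene-wise F form gave an edgeR adjusted p of 0.508 (unadjusted 0.0933) and its Simes form an edgeR adjusted p of 0.998. Neither form called any of the 49 genes (0%). An unadjusted p below 0.05 was given to 4 genes by the F form (8.16%) and to 1 by the Simes form (2.04%), and Atp5f1b was not among them. The difference was -0.52 without knockout replicate 1 (edgeR unadjusted p = 0.0369, adjusted p = 0.466) and -0.15 without knockout replicate 2 (adjusted p = 0.940). By the mean log2 ratio of the 2 most abundant regions, the size of the Atp5f1b difference, 0.33, ranked 23 of 49, where the median was 0.25. Other genes of the pathway with 2 regions had closer pairs. The alpha subunit gene Atp5f1a stood at 0.16 ± 0.12 and 0.04 ± 0.12, Cyc1, which encodes cytochrome c1, at -0.05 ± 0.21 and -0.19 ± 0.18, and Slc25a4, the main heart carrier that exchanges ADP for ATP, at -0.09 ± 0.11 and 0.05 ± 0.13.

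**Figure D3:**
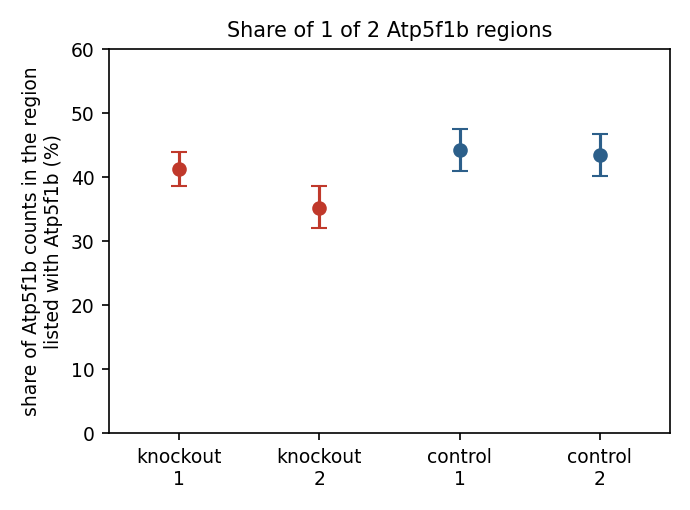
Percentage of the counts of both Atp5f1b regions that fell in the region listed with Atp5f1b (vertical axis, from 0), for each knockout (red) and control (blue) library. Points are the shares and whiskers their 95% Wilson intervals, which treat every count as independent. Knockout library 2 is lowest at 35.2%, and the interval of knockout library 1 overlaps those of both control libraries.

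Atp5f1b has a near-identical copy in the table. A search of its coding sequence against all GENCODE M21 transcripts (blastn, at least 90% identity over at least 100 bases) found Gm4707, annotated as a translated processed pseudogene on chromosome 17, in 3 alignments of 90.9% to 94.9% identity that covered 1352 of the 1590 coding bases. The start of the closest alignment is printed below, over 60 bases with 2 mismatches in capitals. The pair is less alike over the alignments as a whole.
Atp5f1b, chr10:128088982-128089041 (GRCm38, plus strand, exon 9): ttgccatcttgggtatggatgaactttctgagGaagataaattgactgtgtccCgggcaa
Gm4707, chr17:71458542-71458601 (GRCm38, minus strand): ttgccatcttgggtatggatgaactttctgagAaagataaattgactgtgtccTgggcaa
The search was run with the counts of the table already known. The region over Gm4707 and Smchd1 held 192 and 110 counts in knockout and 136 and 144 in control. Normalised counts were 176 and 172 in knockout, against 219.7 and 209.6 in control. Both knockout libraries again lay below both controls on this scale, as in 22.2% of all regions. By library totals alone the groups overlapped. The log2 fold change was -0.30 ± 0.18 (SE, edgeR adjusted p = 0.391). Over the 4 libraries the centred log2 CPM of this region differed from that of the Atp5f1b region listed with Atp5f1b by a root mean square of 0.036, the fourth smallest of 557 regions (rank 4, median 0.267). The Gm4707 and Smchd1 region was not among the 3 nearest to the Atp5f1b region listed with Baz2a. Its difference from that region is not given here. No source used here says how reads that match both genes were counted, so the values of both regions are uncertain, and sharing of reads was not tested. In GRCm38 annotation Atp5f1b also overlaps the small nucleolar RNA Snord59a and Mir677, neither of which the table names for these regions.

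Atp5f1d, on the plus strand at chr10:79977291-79981647 in the table, had 1 region with 216 and 136 counts in knockout and 112 and 162 in control. Normalised counts were 198 and 213 in knockout, against 181 and 236 in control. The control libraries were the lowest and the highest, so the groups overlapped. Means were 206 ± 10.8 in knockout and 208 ± 38.9 in control (SD, n = 2 each). The edgeR log2 fold change was -0.03 ± 0.18 (SE; 95% interval -0.40 to 0.34, adjusted p = 0.962), and the interval holds folds from 0.759 to 1.27. Leaving out control replicate 2 gave 0.17, knockout replicate 1 0.03, control replicate 1 -0.20 and knockout replicate 2 -0.08. All 4 counts of this region were even numbers, as were 77.9% to 83.3% of counts below 200 per library, and such counts are not independent molecules. No near-identical copy was found, and GRCm38 annotation has the gene Cbarp on the opposite strand across 2204 of its bases.

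Cox5a, on the plus strand at chr9:57428557-57439709 in the table, had 1 region with 210 and 115 counts in knockout and 78 and 104 in control. Normalised counts were 192 and 180.3 in knockout, against 126 and 151 in control. Both knockout libraries lay above both control libraries, as they did in 25.3% of all regions. Means were 186 ± 8.62 in knockout and 139 ± 18.0 in control (SD, n = 2 each), a ratio of 1.34. The edgeR log2 fold change was 0.43 ± 0.20 (SE; 95% interval 0.02 to 0.83, adjusted p = 0.231). Its range was 0.31 to 0.63 over the 15 alternatives, with adjusted p of 0.147 or more. Of all regions, 73.7% had a smaller absolute log2 fold change. GRCm38 annotation places the noncoding gene Gm26631 on the opposite strand over 1140 bases of Cox5a, with a match to 116 of its coding bases. A processed pseudogene of Cox5a, Gm11633 on chromosome 11, matches all of its coding sequence at 93.0% identity. The table names neither. No source used here states how strand or reads with several matches were handled, and reads shared with either gene were not tested for.

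**Figure D4:**
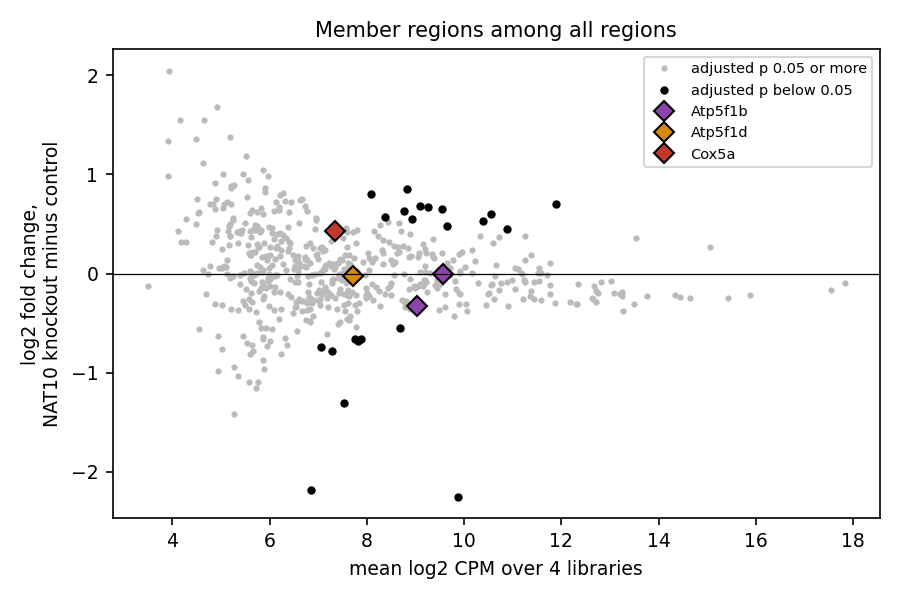
Log2 fold change of knockout minus control (vertical axis) against mean log2 CPM over the 4 libraries (horizontal axis) for all 558 regions. Black points passed the edgeR test at an adjusted p below 0.05, and diamonds mark Atp5f1b, Atp5f1d and Cox5a, which all lie among the grey regions that did not pass.

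The other subunit genes of the same machines gave the setting. Each is named by the gene its region overlaps. The regions of Atp5f1c, Ndufs1, Sdha, Sdhc, Uqcr11, Cox6b1, Slc25a3, Ckmt2 and Vdac1 are listed with another gene, as is the more abundant Atp5f1b region. Of the ATP synthase list 7 genes were measured and 0 passed in either direction, with a median log2 fold change of 0.07. They include Atp5f1a, Atp5f1c, the gamma subunit of the stalk, at 0.31 ± 0.49, Atp5f1e, the epsilon subunit, at 0.07 ± 0.20, Atp5mc1, a gene of the membrane ring, at 0.26 ± 0.41 and the small subunit gene Atp5mj at 0.26 ± 0.28. Of the cytochrome oxidase list 4 were measured and 0 passed, with a median of 0.13. Beside Cox5a these were Cox6a2, the heart and muscle form of subunit 6a, at 0.24 ± 0.12, Cox6b1 at -0.07 ± 0.20 and Ndufa4 at 0.03 ± 0.21. Cox6a2 had 1208 and 1273 normalised counts in knockout, against 1098 and 1006 in control (edgeR adjusted p = 0.263). Knockout lay above control without overlap, as in 25.3% of all regions.

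Of the upstream complexes, 1 gene of complex I, 3 of complex II and 3 of complex III were measured. Ndufs1, the complex I iron-sulfur subunit gene whose region also overlaps Ino80dos, stood at 0.63 ± 0.31 (edgeR adjusted p = 0.264). In complex II, Sdha, Sdhc and Sdhd stood at 0.16 ± 0.16, 0.30 ± 0.17 and -0.03 ± 0.17. In complex III, the Rieske iron-sulfur protein gene Uqcrfs1 stood at -0.21 ± 0.15, Uqcr11 at 0.40 ± 0.32 and the more abundant Cyc1 region at -0.19 ± 0.18. Among carriers, the mitochondrial creatine kinase gene Ckmt2 had the lowest value of the 22 nuclear genes, -0.34 ± 0.13 (adjusted p = 0.142), with 409 and 414 normalised counts in knockout and 556 and 489 in control. The phosphate carrier gene Slc25a3, in a region shared with Gm56945, stood at 0.24 ± 0.15, the more abundant Slc25a4 region at 0.05 ± 0.13 and the outer membrane channel gene Vdac1 at 0.09 ± 0.14. None of the assembly factors in the list was in the table.

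Over all 22 nuclear genes of these lists, each by its most abundant region, 0 passed by edgeR (3.94% of all regions did) and 3 had an unadjusted p below 0.05 (19% of all regions did). The DESeq2 Wald test gave 0 and 0 of the 22, against 0.896% and 8.96% of all regions. Fitted values lay above 0 in 15 of the 22 and below 0 in 7, with a median of 0.08, against 287 above 0, 271 below 0 and a median of 0.01 over all 558 regions. Knockout lay above control without overlap in 8 of the 22, against 25.3% of all regions, and below it in 3, against 22.2%. Without Atp5f1b, Atp5f1d and Cox5a the 19 other genes had a median of 0.09. The mitochondrially encoded core gene of cytochrome oxidase, mt-Co1, which shares its region with mt-Ty, had 34451 and 40460.4 normalised counts in knockout, against 31239 and 31105 in control (0.26 ± 0.25, edgeR adjusted p = 0.602). The region over mt-Nd1 and mt-Nd2 also covers both mitochondrial ribosomal RNAs and stood at -0.09 ± 0.38.

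**Figure D5:**
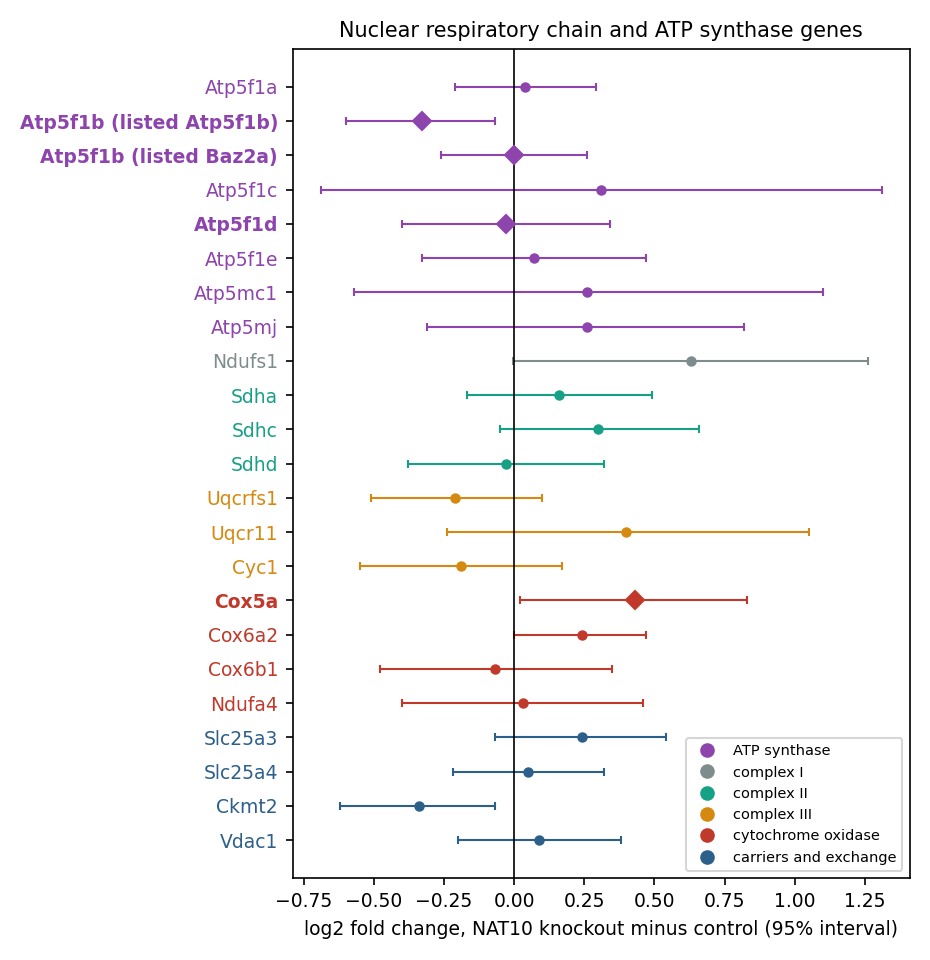
Log2 fold change of NAT10 knockout minus control with its 95% interval (horizontal axis) for nuclear genes of ATP synthase, complexes I to III, cytochrome oxidase and carriers, coloured by machine. Diamonds and bold names mark Atp5f1b, Atp5f1d and Cox5a. The intervals are not adjusted for the number of regions, and those of Cox5a and the Atp5f1b region listed with Atp5f1b lie on opposite sides of 0.

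The regions most like each gene over the 4 libraries were taken by the root mean square difference of centred log2 CPM, among 442 regions over other named genes. Nearest to Cox5a was the region over Pdha1, a pyruvate dehydrogenase subunit gene, and Map3k15, at 0.013. It had 340.1 and 314 normalised counts in knockout, against 223 and 262 in control (0.43 ± 0.16, edgeR adjusted p = 0.121). Uqcr11 (0.037) and Epas1, which encodes a hypoxia-inducible factor (0.055), came next, with log2 fold changes of 0.40 ± 0.32 and 0.40 ± 0.30. The median difference from Cox5a was 0.294. For Atp5f1d the nearest were Hspb7, a small heat shock protein gene (0.027), Ogdh, of the citrate cycle (0.059), and a region over Ttn and Gm13938 (0.062). For the more abundant Atp5f1b region they were the region over Wwp2 and Rps26-ps1 (0.055), that over Snhg1 and Snord22 (0.056) and 1 region of Myh6 (0.060). The Wwp2 region held only 27.5 to 37.6 normalised counts per library, with a log2 fold change SE of 0.57, so its closeness is uncertain.

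The authors' deposited table carries a comparison of its own, whose log2 fold change has no stated direction. No source used here supports turning its sign. With the sign turned, the authors' deposited table and the edgeR fit had the same direction in 396 of 558 regions. The direction is unknown, so this count is no check of either comparison. In the authors' deposited table, the Atp5f1b region listed with Atp5f1b had 0.42 (p = 0.0552) and the region listed with Baz2a -0.73 (p = 0.0937). These are on opposite sides of 0, but the median over all regions there was -0.99, and both lie above it. Atp5f1d had 0.63 (p = 0.231) and Cox5a -0.36 (p = 0.150) in the authors' deposited table, also above that median. All 4 q-values in the authors' deposited table were 1.00, and 429 of its 558 log2 fold changes were below 0. No source used here names the tool behind these values, and both comparisons rest on the same 4 libraries.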

How the data were processed

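Per the labels' protocols, RNA of frozen hearts was isolated with Trizol and sequenced after depletion of ribosomal RNA. FastQC, Salmon and mm10 appear in the submitters' processing notes, with no version or role. Per the file headers, the deposited values are raw counts per region, in 652 lines for 558 distinct regions. The authors' log2 fold change, p-value and q-value were deposited beside them, per the file headers. No source used here gives the region caller, the counter or the strand handling.

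The deposited counts went unchanged into edgeR 4.0.16 (R 4.3.3): filterByExpr (0 regions removed), TMM factors (1.18 and 0.92 in knockout, 0.92 and 1.00 in control), robust dispersion, glmQLFit and glmQLFTest, Benjamini-Hochberg over 558 regions. Standard errors are the log2 fold change over the root of F. Unequal regions were tested with diffSpliceDGE. DESeq2 1.42.0, other scalings, filters, omitted libraries and a replicate block were alternatives. The biological coefficient of variation was 12.6%. Steps were tested on simulated counts. Libraries of a group differed beyond counting noise (chi-square per degree of freedom 16.3 in knockout and 4.51 in control). Sequences are from GENCODE M21 (GRCm38), searched with blastn 2.17.0. The gene lists, the members and the naming rule were chosen with earlier results of these data known. Named were all member regions, every measured gene of the lists and the 3 regions most like each gene.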

Additional observations from a re-analysis of the deposited data

How the results depend on the processing

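None of the 4 regions of Atp5f1b, Atp5f1d and Cox5a passed the test in any alternative in which they were read. The test of unequal Atp5f1b regions did not pass in any of 13. The crossed replicate block described below was read for its count over all regions alone. The direction of Cox5a and of the Atp5f1b region listed with Atp5f1b was the same in all 15 alternatives read for them. Among these, the sum per gene covers both Atp5f1b regions. Leaving out 1 library gave -0.40 to -0.27 for that Atp5f1b region and 0.31 to 0.56 for Cox5a. Summing both regions per gene gave Atp5f1b -0.12 (edgeR adjusted p = 0.689). Values near 0 had the other sign in some settings. The Atp5f1b region listed with Baz2a was 0.12 with library totals alone, 0.03 with a mean count of at least 50, 0.18 with scaling to the 18S rRNA (Rn18s) region, 0.01 with regions over no gene left out, and -0.14 to 0.14 without 1 library. Atp5f1d was 0.10, 0.0019 and 0.16 in the first 3 of these and -0.20 to 0.17 without 1 library. Totals alone moved the median of all regions to 0.15 and 18S scaling to 0.22. Against that shift Cox5a at 0.56 and 0.63 was above, and the Baz2a-listed region and Atp5f1d were below, so their positive values there are no turn relative to other regions. The median of the 22 pathway genes was 0.22 with totals alone, 0.28 with 18S scaling and 0.05 with upper-quartile factors. It was 0.02 to 0.16 without 1 library, and 0 of these genes passed in any setting in which they were read. The count of changed regions, 22, was 8 with totals alone, 6 with 18S scaling, 5 by DESeq2 and 13 to 37 without 1 library (13 without control replicate 2, 37 without knockout replicate 2). The cause was not tested.

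With the replicate number as a block it was 1, with Cox5a at 0.43 (edgeR adjusted p = 0.389) and the Atp5f1b region listed with Atp5f1b at -0.33 (adjusted p = 0.345). The labels do not say that numbers pair libraries. Same-numbered deviations correlated at -0.16, which with 2 pairs does not settle it. A crossed replicate block, chosen after seeing the data as were 18S scaling and the omission of regions over no gene, called 42. With 2 libraries a group and 78 to 742 counts per member region, intervals of these regions span folds such as 0.759 to 1.27. Halved counts left the Cox5a standard error at 0.20. Halving every count keeps the spread between libraries, so this cannot show whether counting depth sets the width.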
